A study of Zea mays with 6 samples.

Results

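The 5 phytochrome genes described here are phyA1 (Zm00001d033799), phyA2 (Zm00001d013402), phyB1 (Zm00001d028905), phyB2 (Zm00001d047632) and phyC1 (Zm00001d034038), among 44351 maize genes measured by RNA sequencing of leaf. They were chosen by identifier as a gene family, and all 5 were found in every library and passed the filter on low values. The names are those given with the member list; neither the deposited tables nor the RefSeq gene table of the B73 reference pairs these identifiers with symbols. The comparison is between 3 libraries from a transgenic strain of the maize inbred line KN5585, in which the series title names ZmSUS1, a sucrose synthase gene, as overexpressed, and 3 libraries from its non-transgenic control. The sample labels place both groups 3 days after drought, whereas the series text gives 5 days. The treatment label of the transgenic samples is transgenic and that of the control samples is normal, so drought and the transgene cannot be told apart if the control plants were watered. The sources used here give neither the promoter of the transgene nor the number of transformation events, the light conditions or the hour of sampling.

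Phytochromes are the red and far-red light receptors of plants. Each carries a bilin chromophore and switches between a red-absorbing inactive form and a far-red-absorbing active form; the active form enters the nucleus, where it acts on PIF transcription factors and on the COP1/SPA ubiquitin ligase. Grasses have the phyA, phyB and phyC types, and maize holds a pair of genes of each type from an ancient doubling of its genome; the second phyC gene is not among the members and was not analysed here. In leaves they inform the plant about shade, day length and the presence of light.

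Levels are FPKM, fragment numbers divided by gene length and by the mapped fragments of the library, so levels of different genes can be set side by side. The transgenic libraries summed to between 829541 and 831082 FPKM over all genes and the control libraries to between 684047 and 689548. The 100 most abundant genes held 48.6% to 49.0% of the summed FPKM in the transgenic libraries and 24.7% to 24.8% in the control libraries. The median log2 fold change, transgenic over control, was -0.56 as deposited, over the 22944 genes tested. It was -0.01 over the 22825 genes tested after median-of-ratios scaling, which removes a shift shared by most genes. Because this shift moves with every result below, the values of each gene are given on both scales, and the ratios between phytochrome genes, which a single scaling factor for each library cannot change, are given as well. The part of the concentration in abundant genes in these results was not tested. The number of fragments behind each value is unknown, and in leaf tissue less RNA per cell and fewer cells that hold the transcript cannot be told apart.

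Both phyA genes were lower in the transgenic leaves, phyA2 more than phyA1, under every scaling tried. The direction of phyB1, phyB2 and phyC1 depends on the scaling. The 5 genes summed to 42.1 ± 0.6 FPKM in the transgenic libraries and 72.4 ± 1.8 FPKM in the control libraries (SD, n = 3 each), 1.72-fold lower. After median-of-ratios scaling the sums were 53.3 ± 0.5 in transgenic and 57.1 ± 1.6 in control libraries, 1.07-fold lower. As deposited, all 5 fell past the threshold, an adjusted p of 0.05 from a limma fit of log2(FPKM + 1) over all tested genes, against a background of 67.7% of all tested genes that fell and 16.3% that rose. After median-of-ratios scaling 2 of the 5 fell, both phyA genes, 1 rose, phyC1, and 2 did not pass, both phyB genes; of all tested genes 36.5% then fell and 36.8% rose. The median log2 fold change of the 5 genes was -0.61 as deposited and 0.03 after scaling, beside -0.56 and -0.01 over all genes. The median of the group was thus near that of all genes on both scales.

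**Figure D1:**
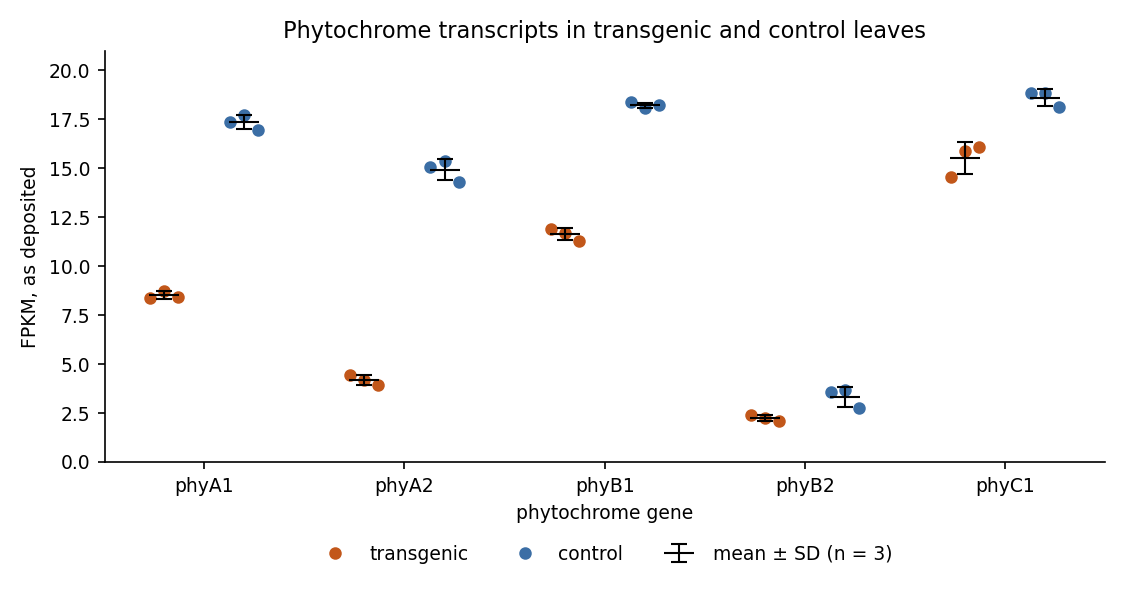
FPKM as deposited (vertical axis) of each phytochrome gene in the 3 transgenic libraries (left, orange) and the 3 control libraries (right, blue); bars are mean ± SD, n = 3. The transgenic points lie below the control points for every gene, with the widest gap for phyA2 and the narrowest gap relative to its level for phyC1.

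phyA is the photoreceptor for far-red light and for very dim light; in grasses and other plants its protein is unstable in light. phyA1 stood at 8.39, 8.74 and 8.44 FPKM in the transgenic libraries, against 17.38, 17.72 and 16.97 FPKM in the control libraries. The groups lay far apart, and the spread within each was small, with coefficients of variation of 2.22% in transgenic and 2.16% in control leaves. The transgenic mean was 8.52 ± 0.19 FPKM and the control mean 17.36 ± 0.38 FPKM (SD, n = 3 each), a 2.04-fold lower level. On the log2(FPKM + 1) scale the fold change was -0.95 ± 0.05 (SE; limma, adjusted p = 2.2e-07).

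Its duplicate phyA2 had the largest difference of the 5 genes under every scaling tried. phyA2 stood at 4.43, 4.16 and 3.93 FPKM in the transgenic libraries, against 15.05, 15.37 and 14.32 FPKM in the control libraries. Every transgenic value was thus below a level that no control library approached. The means were 4.17 ± 0.25 FPKM in transgenic and 14.91 ± 0.54 FPKM in control leaves (SD, n = 3 each), a 3.57-fold lower level, and the log2 fold change was -1.62 ± 0.06 (SE, limma, adjusted p = 4.7e-08). Of all tested genes, 6.44% had a log2 fold change below that of phyA2, and 26.5% one below that of phyA1. Once libraries were scaled by median-of-ratios, the log2 fold changes were -1.02 ± 0.06 for phyA2 (SE, limma, adjusted p = 1.3e-06) and -0.32 ± 0.05 for phyA1 (SE, limma, adjusted p = 0.00035), so both stayed lower when the shared shift was removed.

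phyB is the main receptor for red light and for the shade signal in light-grown plants, and in maize both phyB genes take part in the light control of seedling elongation and flowering. phyB1 stood at 11.90, 11.70 and 11.29 FPKM in the transgenic libraries, against 18.36, 18.09 and 18.21 FPKM in the control libraries. The groups did not overlap as deposited, and all 3 control values lay close together. The means were 11.63 ± 0.31 FPKM in transgenic and 18.22 ± 0.14 FPKM in control leaves (SD, n = 3 each), and the log2 fold change was -0.61 ± 0.04 (SE, limma, adjusted p = 2.2e-06). That is close to the median of all genes: 46.9% of tested genes had a lower value.

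phyB2 was the least abundant of the 5 genes in both groups. It stood at 2.41, 2.24 and 2.07 FPKM in the transgenic libraries, against 3.59, 3.66 and 2.74 FPKM in the control libraries. The third control library was lower than the other two, yet still above every transgenic library. The means were 2.24 ± 0.17 FPKM in transgenic and 3.33 ± 0.51 FPKM in control leaves (SD, n = 3 each), and the log2 fold change was -0.41 ± 0.11 (SE, limma, adjusted p = 0.0067). The pseudocount of 1 understates differences at this level, and with a pseudocount of 0.1 the log2 fold change was -0.54.

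After median-of-ratios scaling neither phyB gene passed the test, and their transgenic and control values overlapped. The scaled log2 fold change of phyB1 was 0.03, with a 95% confidence interval from -0.07 to 0.14 (limma, adjusted p = 0.52). That of phyB2 was 0.09, with an interval from -0.16 to 0.33 (limma, adjusted p = 0.49). These intervals take the scaling as given and reflect only the spread among the libraries. Missing the threshold does not show that the levels were the same.

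phyC, whose protein in Arabidopsis is stable only together with phyB, contributes to day-length responses in grasses. phyC1 stood at 14.56, 15.89 and 16.11 FPKM in the transgenic libraries, against 18.84, 18.86 and 18.11 FPKM in the control libraries. The first transgenic library was lowest, and the groups did not overlap. The means were 15.52 ± 0.84 FPKM in transgenic and 18.60 ± 0.43 FPKM in control leaves (SD, n = 3 each), the smallest relative difference of the 5 genes as deposited, though not after median-of-ratios scaling. Its log2 fold change was -0.25 ± 0.05 as deposited (SE, limma, adjusted p = 0.0018). It was 0.40 ± 0.05 after median-of-ratios scaling (SE, limma, adjusted p = 0.00013) and 0.34 after quantile normalisation (limma adjusted p = 0.00031). With the libraries scaled to the same total FPKM it was -0.51 (limma adjusted p = 1.7e-05), so its direction flips with the choice of scaling. Of all tested genes, 67.4% had a lower log2 fold change than phyC1 as deposited.

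**Figure D2:**
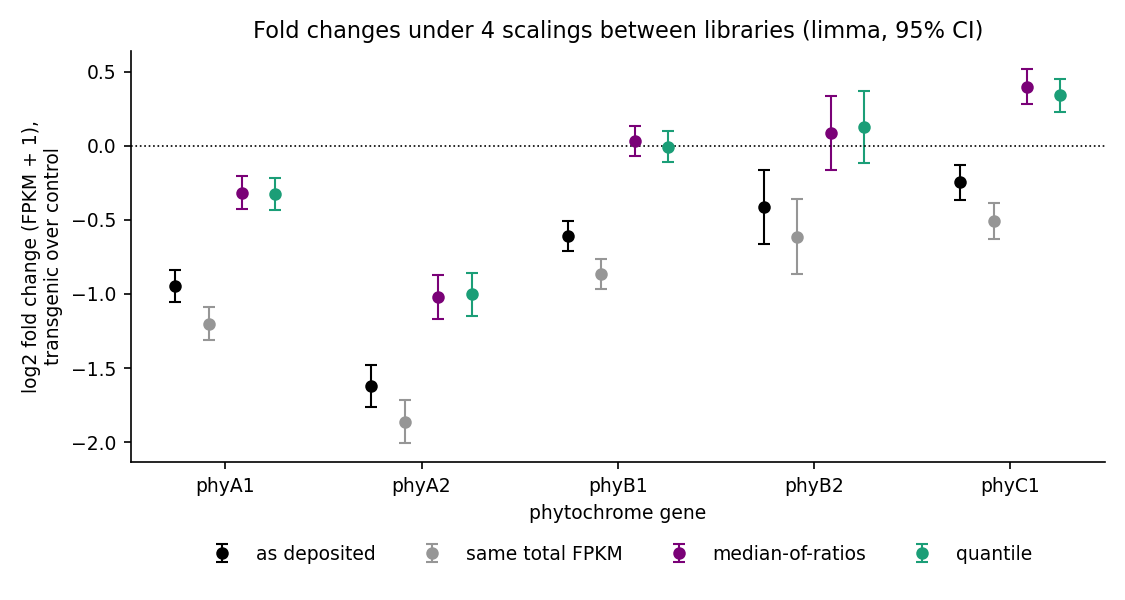
Log2 fold change of FPKM + 1, transgenic over control (vertical axis), for each phytochrome gene under 4 scalings between libraries; points are limma estimates and bars their 95% confidence intervals, from 3 libraries a group. phyA1 and phyA2 lie below 0 under all 4, phyB1 and phyB2 lie below 0 as deposited and near 0 after median-of-ratios and quantile scaling, and phyC1 lies below 0 as deposited and above it after those scalings. With the libraries scaled to the same total FPKM, every gene lies below 0.

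The non-overlap of the groups as deposited is common in these data: all 3 transgenic libraries lay below all 3 control libraries in 67.9% of the genes tested, and in 5 of the 5 phytochrome genes. Among the 10242 tested genes whose mean lay between those of phyB2 and phyC1, the median log2 fold change was -0.68 as deposited and -0.08 after scaling. Set against genes of their own range of levels, phyA1 and phyA2 had lower fold changes than the median, and phyB1, phyB2 and phyC1 higher ones.

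**Figure D3:**
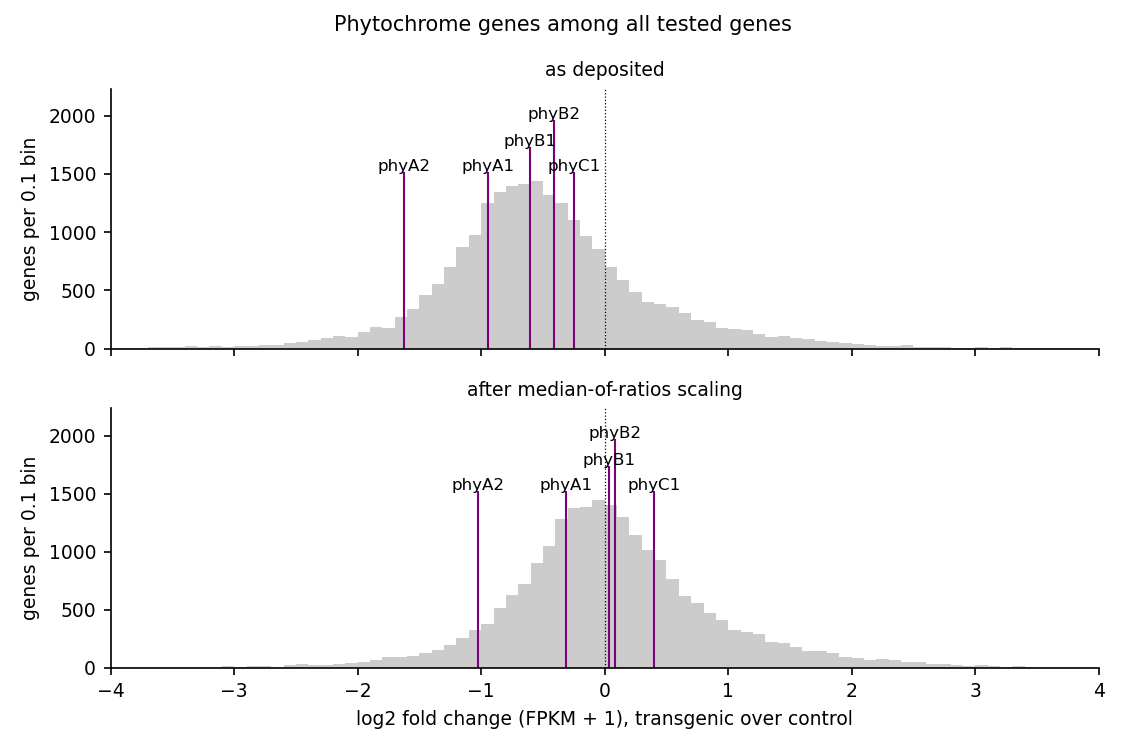
Number of tested genes per 0.1 of log2 fold change (grey bars, vertical axis), transgenic over control, as deposited (top) and after median-of-ratios scaling (bottom), with the 5 phytochrome genes as lines; 84 genes in the top panel and 78 in the bottom panel lie outside the range drawn. phyA2 lies in the lower tail in both panels, and phyB1 lies near the peak in both.

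The order of the 5 genes by level was the same in both groups, but the levels were spread differently. In the transgenic leaves phyC1 was highest, followed by phyB1, phyA1, phyA2 and phyB2, and no library of one gene overlapped the next gene in that order. In the control leaves the same order held by the means, but phyC1 and phyB1 overlapped, phyC1 being above phyB1 in 2 of 3 libraries; the next neighbours did not overlap. The mean of phyC1 was 15.52 FPKM and that of phyA2 4.17 FPKM in the transgenic leaves, against 18.60 and 14.91 FPKM in the control leaves. The 4 more abundant genes were thus spread over a wider range of levels in the transgenic leaves than in the control leaves, and phyB2 lay below them in both groups.

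The rank of each gene within its library does not depend on such a factor either. Among the genes above 0 in a library, phyA2 exceeded 52.5% to 54.7% in the transgenic libraries and 70.1% to 71.7% in the control libraries. phyA1 exceeded 68.0% to 68.5% in transgenic and 73.9% to 74.9% in control libraries. phyC1 went the other way, at 79.0% to 80.6% in transgenic and 75.2% to 76.3% in control libraries. phyB1 lay slightly lower by this share, at 73.9% to 75.1% in transgenic and 75.3% to 75.8% in control libraries. Its rank from the top overlapped, at 7030, 7200 and 7377 in transgenic and 7113, 7220 and 7195 in control libraries. The share also rests on the number of genes above 0, from 28298 to 28311 in transgenic and 29229 to 29376 in control libraries. phyB2 overlapped, at 41.7% to 44.1% in transgenic and 40.4% to 44.5% in control libraries.

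The make-up of the phytochrome transcripts differed accordingly. The phyA pair held 30.2% ± 0.6 of the summed phytochrome FPKM in the transgenic leaves and 44.6% ± 0.3 in the control leaves (SD, n = 3 each). Most of that gap lay in phyA2, which held 9.9% ± 0.6 in transgenic and 20.6% ± 0.3 in control leaves, whereas phyA1 held 20.3% ± 0.2 and 24.0% ± 0.2 in transgenic and control leaves. phyC1 held 36.9% ± 1.8 in the transgenic and 25.7% ± 0.1 in the control leaves. The phyB pair held 33.0% ± 1.2 in transgenic and 29.8% ± 0.2 in control leaves, and phyB2 alone overlapped between the groups. Shares of one sum are not independent, since a smaller share of one gene raises those of the others.

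**Figure D4:**
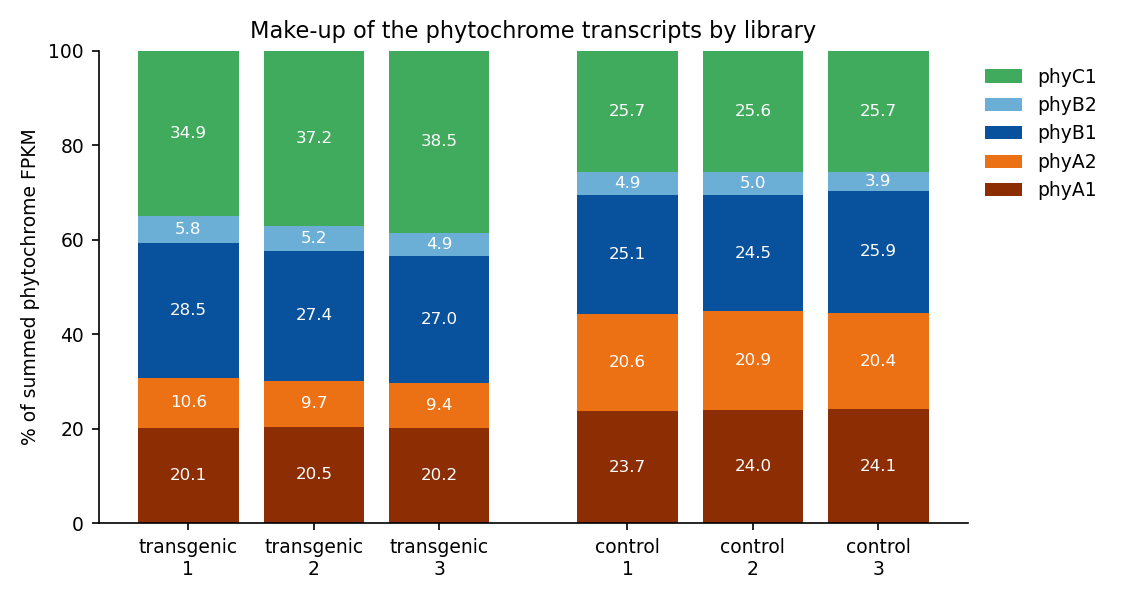
Share of each phytochrome gene in the summed FPKM of the 5 genes (vertical axis, %), 1 bar per library, transgenic libraries on the left and control libraries on the right. The phyA2 segment spans 9.4% to 10.6% in transgenic and 20.4% to 20.9% in control libraries, and the phyC1 segment 34.9% to 38.5% and 25.6% to 25.7% in transgenic and control libraries.

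Ratios between members were compared for all 10 pairs of genes with an exact permutation test over the 6 libraries, two-sided. With 3 libraries a group this test cannot give a p below 0.1, so no pair could pass the threshold, and the size and overlap are given instead. The groups did not overlap in 8 of the 10 pairs, each at the smallest p of 0.1 (exact permutation, adjusted p = 0.125 over the 10 pairs). Over all pairs of tested genes above 0 in every library the share was 75.7%, so such a count is common here, and the 10 pairs share 5 genes. Among the phyA duplicates, the ratio of phyA1 to phyA2 was 1.89, 2.10 and 2.15 in the transgenic libraries, against 1.15, 1.15 and 1.19 in the control libraries. The log2 ratio was 1.03 ± 0.10 in transgenic and 0.22 ± 0.02 in control leaves (SD, n = 3 each), a difference of 0.81.

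For the phyB duplicates the ratio of phyB1 to phyB2 was 4.94, 5.22 and 5.45 in the transgenic libraries, against 5.11, 4.94 and 6.65 in the control libraries. The values overlapped, with a difference in log2 ratio of -0.09 (exact permutation p = 0.8, adjusted p = 0.8). The third control library, in which phyB2 was low, gave the highest ratio. Without it the difference was 0.05, so the sign rests on that library. With 1 added to each FPKM value the difference was -0.19 (exact permutation p = 0.1), so the value depends on the pseudocount.

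Across types, the largest difference was between phyA2 and phyC1, whose log2 ratio was -1.90 ± 0.16 in transgenic and -0.32 ± 0.02 in control leaves (SD, n = 3 each), a 2.98-fold difference between the ratios. The phyA pair summed to 0.92 ± 0.02 times the phyB pair in transgenic leaves and to 1.497 ± 0.022 times in control leaves (SD, n = 3 each), without overlap. phyB1 to phyC1 differed by 1.31-fold between the groups, also without overlap. phyB2 to phyC1 overlapped, with a difference in log2 ratio of -0.30 (exact permutation p = 0.2, adjusted p = 0.22), or -0.16 with 1 added to each value.

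**Figure D5:**
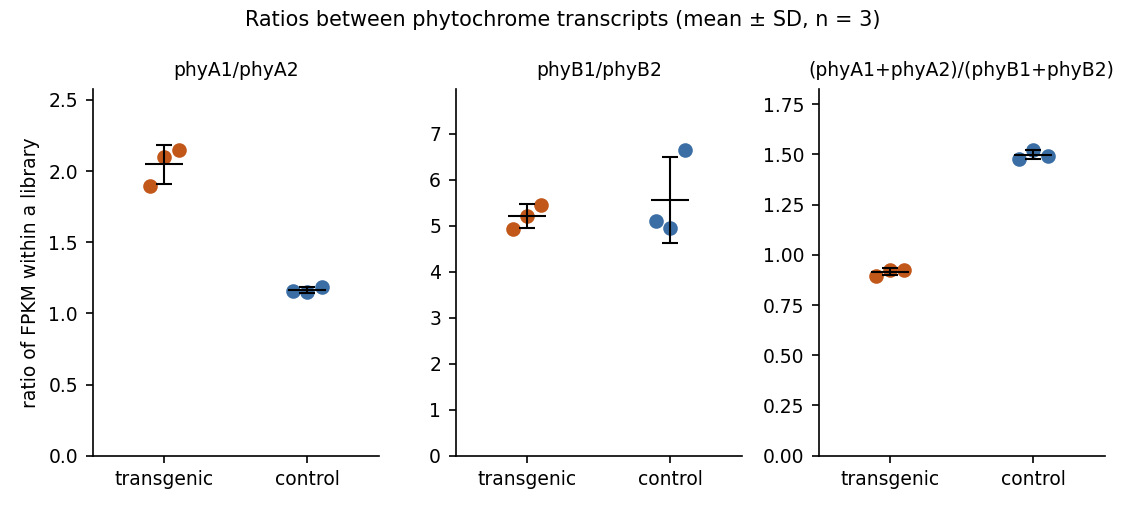
Ratio of FPKM within each library (vertical axes, each from 0) for phyA1 to phyA2, phyB1 to phyB2 and the phyA pair to the phyB pair, transgenic left and control right; bars are mean ± SD, n = 3. The first ratio is higher in all 3 transgenic libraries (1.89 to 2.15) than in control libraries (1.15 to 1.19), the second overlaps, and the third is lower in transgenic (0.90 to 0.93) than in control libraries (1.48 to 1.52).

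The sources used here do not say how reads that match both copies of a duplicated gene were counted, so the split between phyA1 and phyA2 and between phyB1 and phyB2 is less certain than the sum of each pair. The sums were 12.7 ± 0.3 FPKM for phyA in transgenic and 32.3 ± 0.9 FPKM in control leaves, and 13.9 ± 0.5 FPKM for phyB in transgenic and 21.6 ± 0.5 FPKM in control leaves (SD, n = 3 each). After median-of-ratios scaling they were 16.1 ± 0.3 for phyA in transgenic and 25.5 ± 0.8 in control leaves, still without overlap, and 17.58 ± 0.62 for phyB in transgenic and 17.01 ± 0.47 in control leaves, which overlapped. No phytochrome gene shared all of its 6 values with another gene.

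The genes whose pattern over the 6 libraries was most like that of a phytochrome were found by the root mean square distance of their log2(FPKM + 1) values, each centred on its own mean. The closest were Zm00001d012029, at 0.0075 from phyB1, and Zm00001d035773, at 0.0093 from phyA1. The tables do not pair these identifiers with symbols. Both were lower in the transgenic leaves as deposited, with log2 fold changes of -0.60 and -0.94 in that order. The distances used deposited values, in which all 5 members were lower, so a close match to a member is lower too. With median-of-ratios size factors applied, Zm00001d012029 stood at 0.07 and was no longer lower, whereas Zm00001d035773 stood at -0.34. Zm00001d012029 stood at 37.49, 36.60 and 35.63 FPKM in transgenic and 56.35, 55.50 and 55.42 FPKM in control libraries. No phytochrome gene was among the nearest genes of another. The closest 2 members were phyB1 and phyB2, at a distance of 0.143, where 2349 other genes were nearer to phyB2 and 5435 nearer to phyB1. phyC1 was almost as close to phyB2, at 0.145, where 2490 other genes were nearer to phyB2.

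The light-signalling genes around the phytochromes (35 symbols, among them the chromophore synthesis gene elm1, cryptochromes, phototropins, PIF factors, COP1, SPA and HY5), markers of leaf and other organs, and ZmSUS1 itself could not be paired with identifiers in these tables and were not analysed here. The leaf label and the overexpression were therefore not checked against transcripts. The libraries are described as biological replicates, but no label ties them to separate plants; the p-values rest on the spread among these libraries alone, which may be technical.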

How the data were processed

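RNA-seq libraries of 6 leaf samples came from a SMARTER mRNA-Seq kit, per the labels' protocols. The values deposited by the authors, 1 table for each library, are FPKM per the file headers, rounded to 2 decimals. DESeq2, without version or role, and mm10, which is a mouse build, appear in the submitters' processing notes. Aligner, counter and maize build: not given in the sources used here. Fragment numbers could not be recovered. In genes with few fragments (at least 2 of 6 values at 0, and both values between 0.15 and 1.5 FPKM), the commonest ratio between a transgenic and a control library lay between 0.94 and 1.00 in all 9 such pairs, but that peak was weak (13 to 21 genes in the fullest bin, 11 to 18 in the next), so relative depth was not settled.

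Groups were taken from the sample titles. All genes averaging 0.5 FPKM or more were fitted in R 4.3.3 with limma 3.58.1 on log2(FPKM + 1) (group as the only term, empirical Bayes with an intensity trend, two-sided, Benjamini-Hochberg over 22944 genes); the test was also run on simulated data. The added pseudocount of 1 makes fold changes of low genes smaller than they are. Median-of-ratios size factors, computed on the FPKM, ran from 0.786 to 0.793 in transgenic and from 1.26 to 1.27 in control libraries; the scaled test held 22825 genes. Ratios between members were tested by exact permutation (scipy 1.17.1), and figures drawn with matplotlib 3.10.9. The members and lists were chosen with earlier results of these data known. Besides the members, the genes named are those nearest in pattern to a member, at most 2 higher and 2 lower. No gene that was higher as deposited was among the nearest. Alternatives were 2 filters, another pseudocount, 3 scalings, no intensity trend, a stricter adjusted p of 0.01, the replicate number as a block and omission of single libraries.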

Additional observations from a re-analysis of the deposited data

How the results depend on the processing

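The count of phytochrome genes lower past the threshold, 5 as deposited, was 2 under both median-of-ratios and quantile scaling. The count of higher genes, 0 as deposited, was 1 under both. As deposited, 15529 of all 22944 tested genes fell and 3749 rose. Under median-of-ratios scaling 8329 of 22825 fell and 8391 rose, and under quantile scaling 8899 of 22944 fell and 7758 rose. In the order median-of-ratios and quantile, the log2 fold change of phyB1 became 0.033 and -0.0054, that of phyB2 0.086 and 0.13, and that of phyC1 0.40 and 0.34. Both the median-of-ratios and the quantile scaling remove the shared median shift by construction. Scaling to the same total FPKM gave log2 fold changes of -0.86 for phyB1, -0.61 for phyB2 and -0.51 for phyC1, with 5 phytochrome genes lower. Of all 23019 genes tested under that scaling, 17521 fell and 2781 rose. Leaving out single libraries gave log2 fold changes from -0.96 to -0.93 for phyA1, -1.66 to -1.59 for phyA2, -0.62 to -0.59 for phyB1, -0.51 to -0.36 for phyB2 and -0.27 to -0.21 for phyC1, with 5 genes lower each time; the difference in log2 phyB1/phyB2 ran from -0.16 to 0.049. Among all tested genes, the number that fell in these omissions ran from 15003 of 22742 to 15289 of 23066. With the replicate block the count of lower phytochrome genes was also 5, beside 15453 of all 22944 tested genes. A steady count of 5 is thus common to most genes here. Deviations of same-numbered libraries correlated at 0.002, -0.05 and 0.002, so the numbers do not pair them. Outside median-of-ratios and quantile scaling, all 65 fold changes kept their direction and call, those from the omissions and the replicate block included. The direction of the ratios was kept in 69 values, though with a pseudocount of 1 the phyB1/phyB2 difference, -0.09, was -0.19 and the phyB2/phyC1 difference, -0.30, was -0.16. Fragment numbers are unknown, so counting error was not estimated for any gene.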
